A study of Mus musculus with 25 samples.

Results

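The comparison set 3 arrays labelled sham 58 Ly6C High against 2 arrays labelled sham Ly6C Low, 5 of the 25 arrays of the series, set by their labels among the sham fractions in which many probe sets were detected. The sham High arrays of animals Sham1 and Sham2, with 12.9% of probe sets or fewer called present, were not part of it. All 5 came from CD11b+ cells that were flow-sorted from kidney after sham surgery of male mice of strain C57BL/6, 8 to 10 weeks old, in which the renal vessels were not clamped, and every animal of the series received saline and buprenorphine. The 3 sham 58 High arrays carry the same label, and nothing in it tells whether they came from separate animals, so p-values measure only the spread between these arrays, which may be technical. They are numbered 1 to 3 below only to name them. The 2 sham Low arrays are labelled as animals Sham1 and Sham2. No time after surgery is given for any of the 5. Because no sham 58 Low array and no High array of comparable detection from Sham1 or Sham2 were at hand, the gate and the collection of animals cannot be told apart. The other 20 arrays are sorted fractions from kidneys after ischemia and reperfusion or from other sham gates, and 1 reference RNA.

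Ly6C is a surface protein that marks classical monocytes, the inflammatory cells that leave the blood for injured tissue. Nonclassical monocytes carry little of it, patrol the vessel wall and need the nuclear receptor Nr4a1. The uninjured kidney also holds resident macrophages, which make complement C1q and display antigen on MHC class II, along with dendritic cells. CD11b, the product of Itgam, is shared by monocytes, macrophages and neutrophils, so a CD11b+ sort can hold all of these. Neutrophils carry some Ly6C as well.

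Promoter windows of 3 genes are shown, that of the sort marker and those of tubule genes. Each is the 250 bases before the transcription start in RefSeq (build GRCm38.p6). Ly6c2 encodes the sort marker and lies on the minus strand at chr15:75111972-75112221. Slc34a1, on the plus strand at chr13:55399398-55399647, and Miox, on the plus strand at chr15:89334223-89334472, are proximal tubule genes whose levels separated both sides. Capitals mark GAGGAAGT, a site of the myeloid factor PU.1, in Ly6c2, and GTTAAT or its reverse complement ATTAAC, a recognition element of the kidney and liver factor HNF1, in the other genes.
Ly6c2: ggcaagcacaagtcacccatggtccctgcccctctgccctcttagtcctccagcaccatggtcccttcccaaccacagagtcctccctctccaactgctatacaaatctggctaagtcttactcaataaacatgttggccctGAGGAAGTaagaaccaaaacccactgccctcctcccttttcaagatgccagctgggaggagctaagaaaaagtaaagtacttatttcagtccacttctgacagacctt
Slc34a1: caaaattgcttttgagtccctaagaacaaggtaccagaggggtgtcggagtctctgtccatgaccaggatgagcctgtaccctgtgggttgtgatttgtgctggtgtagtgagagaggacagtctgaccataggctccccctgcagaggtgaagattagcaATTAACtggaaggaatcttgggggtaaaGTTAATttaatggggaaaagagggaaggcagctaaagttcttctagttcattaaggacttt
Miox: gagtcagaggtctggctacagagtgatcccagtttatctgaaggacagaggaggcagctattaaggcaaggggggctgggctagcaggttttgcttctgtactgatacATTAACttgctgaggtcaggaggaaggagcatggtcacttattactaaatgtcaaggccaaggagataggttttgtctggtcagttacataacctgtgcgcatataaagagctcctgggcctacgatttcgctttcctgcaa
GAGGAAGT began 108 bases before the Ly6c2 start shown. RefSeq gives Ly6c2 another start, whose overlapping window held the site 142 and 8 bases before it, and of the 2 windows of Ly6c1 1 held it, 127 bases before its start. ATTAAC began 89 and GTTAAT 61 bases before the Slc34a1 start, and ATTAAC began 142 bases before that of Miox. On either strand GTTAAT was found in the windows of 2023 of 27025 genes (7.49%) and of 6 of the 16 kidney tubule genes with a window (37.5%), which were Slc34a1, Umod, Miox, Slc22a6, Pck1 and Acsm2. GAGGAAGT was found in 755 of the 27025 (2.79%) and in 4 of 20 neutrophil genes (20%), S100a8, Mmp8, Elane and Mpo. It was found in 0 of 9 classical monocyte, 0 of 8 nonclassical monocyte, 0 of 9 pan-myeloid, 0 of 8 MHC class II and 1 of 16 resident macrophage genes (C1qc). These motifs do not overlap each other, and a match describes letters, not binding.

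Detection was high on all 5 arrays. Probe sets called present (P, by the deposited detection calls) made up 33.6%, 29.3% and 30.2% of 45101 on sham 58 High 1 to 3, against 40.0% and 27.4% on sham Low 1 and 2. On the other sorted-cell arrays this share lay between 1.99% and 37.3%. The ratio of 3′ to 5′ Gapdh signal was 1.98, 2.14 and 4.29 on the sham 58 High arrays and 1.85 and 2.82 on the sham Low arrays, so sham 58 High 3 had the highest. No pair of arrays held the same values.

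The sort marker did not separate the sides. Ly6c1 and Ly6c2 share a probe set, which read 12.94, 11.40 and 7.75 log2 units on sham 58 High 1 to 3, against 12.57 and 10.37 on sham Low 1 and 2, called P on all 5. Both arrays labelled Low lay inside the range of the arrays labelled High, and the lowest value was on a High array. Itgam itself was dim, with 3.87, 6.46 and 2.68 on sham 58 High 1 to 3, against 5.25 and 2.90 on sham Low 1 and 2. It was called P on every array but sham 58 High 3. The sides are therefore named by their labels below, and no direction for Ly6C itself is drawn from them.

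Monocyte, macrophage and MHC class II genes were detected on both sides, and neutrophil genes on both but unevenly. Kidney tubule genes averaged 6.69 to 7.32 log2 units on the sham 58 High arrays, against 9.36 and 9.67 on the sham Low arrays. Mertk, a macrophage receptor, and Aqp1, a tubule water channel, were called P on no sham 58 High array and on both sham Low arrays. No gene passed the test between the sides. Among 7837 genes called P on at least 2 arrays of either side, 0 passed an adjusted p of 0.05 in limma (0.0%), and the smallest adjusted p was 0.195. At an unadjusted p under 0.05 there were 594 genes (7.58%), 222 with higher values on the sham 58 High arrays (2.83%) and 372 with lower values (4.75%). The arrays of the sides did not overlap for 1745 genes (22.3%), with sham 58 High above for 849 (10.8%) and below for 896 (11.4%). The median difference over all genes tested was 0.04 log2 units. Centring each array on its median moved this to -0.09, so differences of that order have no settled sign. When all 24 sorted-cell arrays shared 1 estimate of the spread, 11 genes were called (0.14%), and when the sham 58 High arrays entered that fit as their mean, 1 was. What follows gives levels and differences for named genes and lists. None of the differences between the sides passed the test on the 5 arrays, and counts of members are descriptions.

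**Figure D1:**
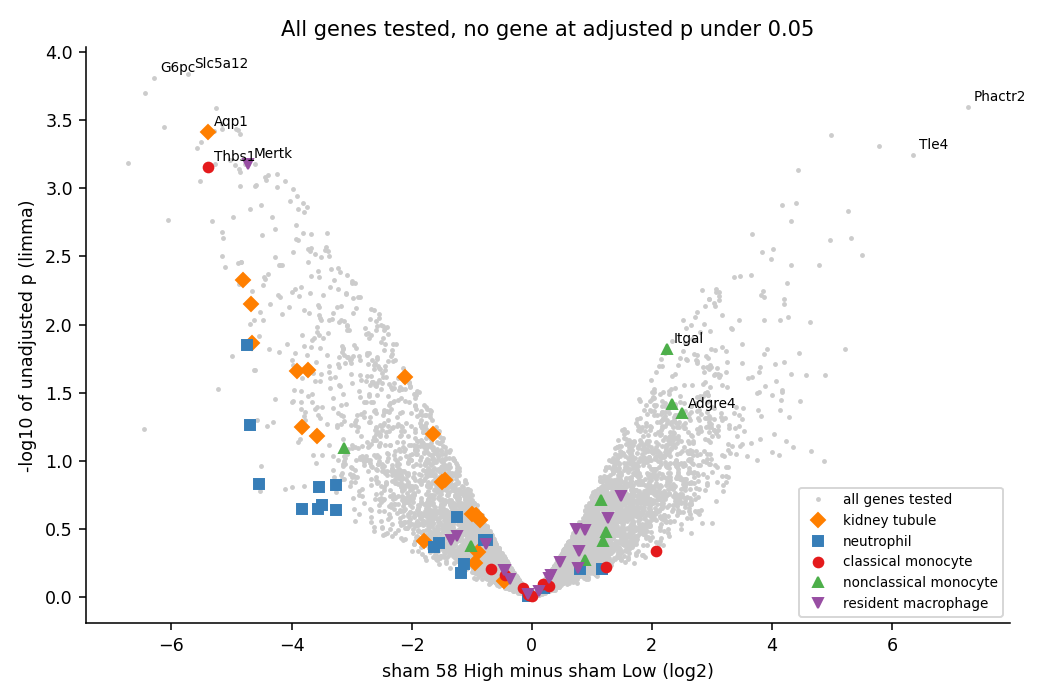
Each point is 1 of the 7837 genes tested, with the difference in level (sham 58 High minus sham Low, log2) on the horizontal axis and -log10 of the unadjusted limma p on the vertical axis; colours mark members of 5 gene lists. Kidney tubule genes lie left of 0, nonclassical monocyte genes mostly right of it, and Mertk and Thbs1 stand apart from the rest of their lists at the left.

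Myeloid and leukocyte genes were detected on both sides. All 13 genes of the pan-myeloid and leukocyte list were tested, and 0 of 13 passed the test. All 13 differences were above 0, against 4048 of 7837 over all genes, with a median of 0.20, and 2 lay above without overlap (10.8% over all genes). Lyz2, the lysozyme of monocytes, macrophages and neutrophils, averaged 13.86 ± 0.26 on sham 58 High and 13.66 ± 0.34 on sham Low (SD, n = 3 and 2). Tyrobp, the signalling adaptor of many myeloid receptors, averaged 13.68 ± 0.20 and 13.51 ± 0.20 on the same sides. Ptprc (CD45), present on all leukocytes, read 11.49, 10.28 and 11.25 on sham 58 High 1 to 3, against 10.40 and 9.48 on sham Low 1 and 2, and the sides overlapped. Spi1, which encodes PU.1, differed by 0.44 ± 0.71 (SE). Tyrobp was chosen after its values were seen. In bulk arrays such as these, fewer cells of a type and less RNA per cell cannot be told apart.

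**Figure D2:**
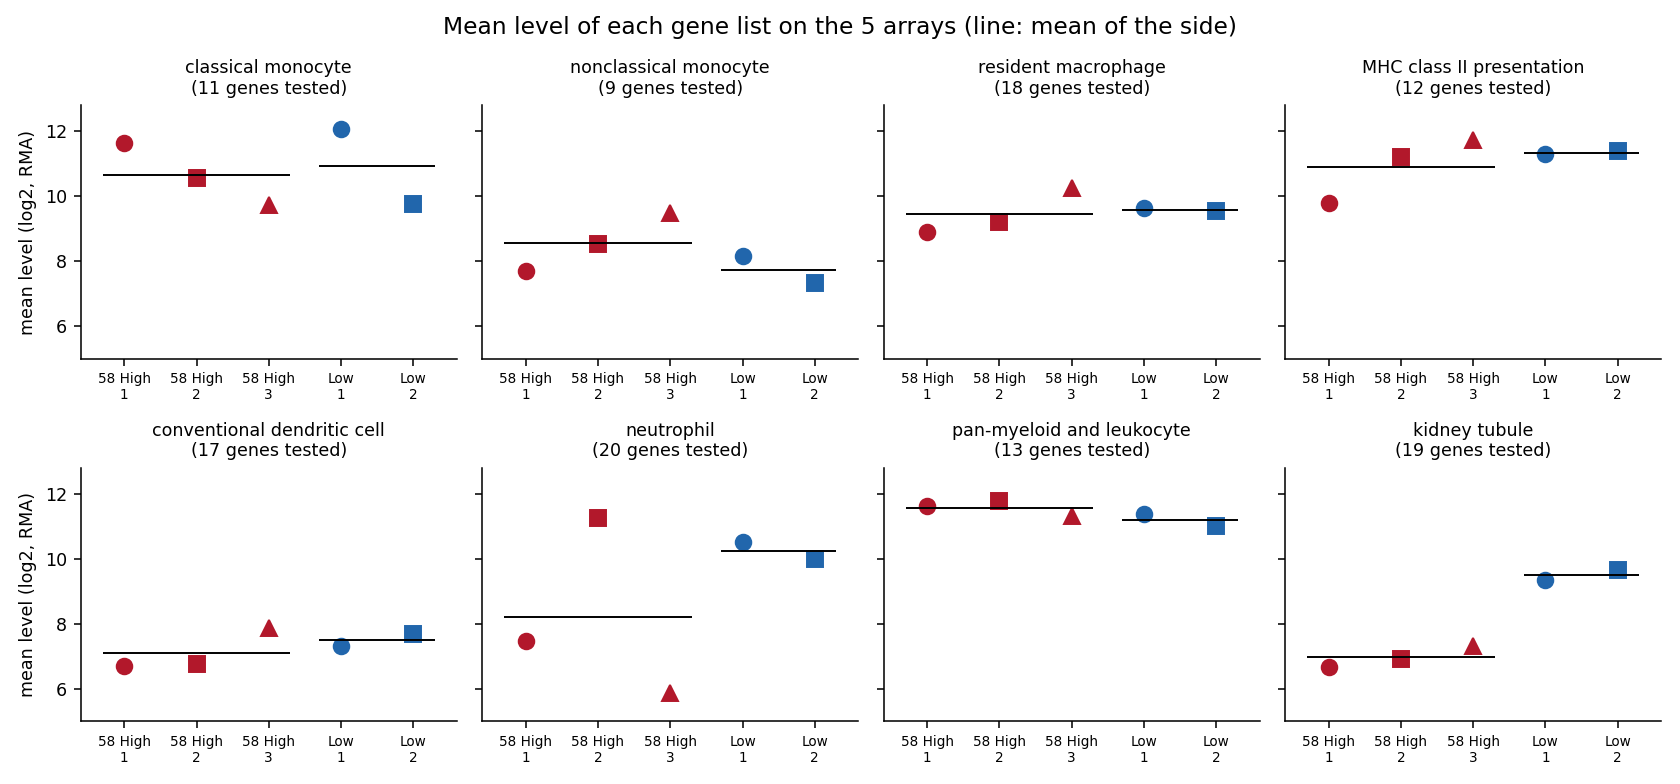
Mean level of each of 8 gene lists (log2, vertical axis) on each of the 5 arrays (horizontal axis), with a line at the mean of each side. The kidney tubule list is the panel in which all 3 sham 58 High arrays (6.69 to 7.32) lie well below both sham Low arrays (9.36 and 9.67), while the neutrophil panel spreads from 5.88 to 11.26 within sham 58 High.

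Classical monocyte genes were high on both sides and followed single arrays rather than labels. Of 14 list genes 12 were on the array and 11 were tested, 0 of them called, with a median difference of -0.04 that became 0.45 without sham Low 1 and -1.03 without sham Low 2. Ccr2, the chemokine receptor that takes monocytes out of the marrow, read 12.27, 11.41 and 11.39 on sham 58 High 1 to 3, against 12.15 and 11.51 on sham Low 1 and 2. Chil3, a chitinase-like secreted protein of Ly6C-high monocytes, read 13.23, 11.81 and 10.41 on sham 58 High, against 12.84 and 10.22 on sham Low. For both genes the highest values were on sham 58 High 1 and sham Low 1.

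F13a1, the A chain of coagulation factor XIII, followed the same arrays with a larger span, at 12.08, 8.12 and 8.79 on sham 58 High 1 to 3, against 11.81 on sham Low 1 and 3.37, not called P, on sham Low 2. Vcan, the proteoglycan versican, was called P only on sham 58 High 1 (9.25) and sham Low 1 (9.18), and it was 3.63 and 3.50 on sham 58 High 2 and 3 and 4.13 on sham Low 2. Fn1, fibronectin, read 10.77, 6.87 and 6.44 on sham 58 High and 9.94 and 3.66 on sham Low. These 3 genes thus paired 1 array of each label. Without sham Low 2 the differences of F13a1 (2.08), Fn1 (1.23) and Chil3 (0.28) changed sign, to -2.14, -1.91 and -1.03, and without sham Low 1 that of Ccr2 (-0.14) became 0.18. Ms4a4c and Plac8, chosen after their values were seen, differed by -0.06 ± 0.93 and -0.04 ± 0.80 (SE).

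Thbs1 was the exception in the list. Thrombospondin 1, a matrix protein made by monocytes and platelets among others, read 1.99, 2.62 and 2.68 on sham 58 High 1 to 3, called P on none, against 8.68 and 6.96 on sham Low 1 and 2. The sides did not overlap, and sham 58 High was 41.8-fold lower, with a difference of -5.38 ± 0.82 (SE, limma adjusted p 0.195). Here and below, such a fold compares the means of the sides, with undetected values as read, and it leaves out the spread between arrays. Each of these undetected values lay above the lowest value called P on its array, so the fold is an estimate and not a minimum. Averaging the gene's probe sets gave -3.11.

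Nonclassical monocyte genes lay above 0 in most cases. Of 12 list genes 10 were on the array and 9 were tested; 7 of 9 differences were above 0, with a median of 1.19, 3 had an unadjusted p under 0.05 with sham 58 High higher, and 0 were called. The median was 0.72 without sham 58 High 3 and 1.94 without sham 58 High 1. Over all genes tested 4048 of 7837 differences were above 0, and 2.83% had a p under 0.05 with sham 58 High higher.

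Itgal, the alpha chain of the integrin LFA-1 that patrolling monocytes use on the vessel wall, read 9.73, 10.25 and 9.95 on sham 58 High 1 to 3, against 7.64 and 7.80 on sham Low 1 and 2. The sides were about 2 log2 units apart and narrow, with a difference of 2.26 ± 0.66 (SE, limma adjusted p 0.479). Nr4a1 read 10.20, 9.94 and 9.24 on sham 58 High, against 8.43 and 6.48 on sham Low, a difference of 2.34 ± 0.87 (SE, limma adjusted p 0.616). Nr4a1 is also an immediate early gene in many cells.

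Adgre4, an adhesion receptor of the family of the macrophage marker Adgre1, read 9.92, 10.33 and 10.02 on sham 58 High 1 to 3, against 8.95 and 6.24 on sham Low 1 and 2. Its difference of 2.50 was 1.15 without sham Low 2 and 3.85 without sham Low 1. Treml4, a receptor of the TREM family, read 8.56, 8.23 and 9.70 on sham 58 High, against 7.97 and 7.38 on sham Low. All 3 High values lay above both Low values for each of these genes. Ace, angiotensin-converting enzyme, and Spn, the sialoglycoprotein CD43, overlapped between the sides, with differences of 1.24 ± 1.18 and 1.19 ± 1.28 (SE). Without sham Low 2 that of Spn was -0.33. Ace changed sign to -0.17 and -0.11 when the deposited signals plus 1 and plus 32 were used. Fabp4, a fatty acid carrier, ran the other way at 3.29, 4.91 and 8.00 on sham 58 High, against 9.13 and 7.93 on sham Low.

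Resident macrophage genes were high on both sides, with the lowest mean on sham 58 High 1 (8.91) and the highest on sham 58 High 3 (10.27). Of 25 list genes 23 were on the array and 18 were tested, 0 called, with a median difference of 0.20 that was -0.18 without sham 58 High 3 and 0.56 without sham 58 High 2. C1qa, a chain of complement C1q, read 7.75, 9.91 and 11.56 on sham 58 High 1 to 3, against 10.61 and 11.35 on sham Low 1 and 2. C1qc read 7.67, 10.30 and 12.19 on sham 58 High, against 10.80 and 12.00 on sham Low, and C1qb ran from 10.69 to 13.50 on sham 58 High. All 3 chains were ordered alike over the sham 58 High arrays, and that order is the reverse of the order of Ly6c and Chil3 there. Adgre1, the surface marker most used for mouse macrophages, read 10.43, 9.27 and 11.10 on sham 58 High, against 9.19 and 9.56 on sham Low.

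Mertk was the member with the smallest p. This receptor kinase, by which macrophages bind and engulf dying cells, read 3.01, 3.85 and 3.14 on sham 58 High 1 to 3, called P on none, against 7.74 and 8.39 on sham Low 1 and 2, called P on both. Sham 58 High was 26.5-fold lower, the difference being -4.73 ± 0.71 (SE, limma adjusted p 0.195 on the 5 arrays and 0.207 with all sorted-cell arrays). Leaving out each array in turn gave -5.06 to -4.40. Csf1r, the receptor for macrophage colony-stimulating factor, differed by 0.46 ± 0.73 and Maf, a macrophage transcription factor, by 0.74 ± 0.67 (SE). Maf lay above on every sham 58 High array, and its difference was -0.58 when its probe sets were averaged. The other 17 macrophage genes tested had differences of -1.34 to 1.48.

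On sham 58 High 3 scavenger receptors were detected that were not on the other arrays of its label. Cd163, which takes up haemoglobin, was called P there at 7.40 and not on sham 58 High 1 and 2 (1.97 and 2.48), against 2.98 and 2.62 on sham Low 1 and 2. Lyve1, a hyaluronan receptor of perivascular macrophages and lymphatic vessels, was 8.52 there and 3.21 to 3.80 on the other 4 arrays. Stab1 read 2.98, 3.01 and 10.26 on sham 58 High 1 to 3, against 6.71 and 5.91 on sham Low. Csf1r and these 3 were chosen after their values were seen. Of the efferocytosis and lysosome list 19 of 22 genes were tested, 0 called, with 13 above 0 and a median of 0.22 that was -0.020 without sham 58 High 3. Abca1, a cholesterol exporter, was 3.16, 7.65 and 8.83 on sham 58 High, against 3.08 and 3.48 on sham Low.

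MHC class II genes were among the highest measured. H2-Ab1, a class II beta chain, read 12.52, 13.66 and 14.36 on sham 58 High 1 to 3, against 13.81 and 14.16 on sham Low 1 and 2. Cd74, the invariant chain, averaged 13.61 ± 0.88 on sham 58 High and 14.10 ± 0.29 on sham Low (SD, n = 3 and 2). The 12 members tested had a median difference of -0.37, 0 called. It was 0.0053 without sham 58 High 1, the array lowest in H2-Aa, H2-Ab1, H2-Eb1 and Cd74, -0.88 without sham 58 High 3 and -0.68 with array weights. Ciita, the master activator of the class II genes, lay the other way at 7.89, 8.48 and 9.25 on sham 58 High, against 7.38 and 6.59 on sham Low, with no overlap.

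Dendritic cell genes gave no single pattern. Of 20 conventional dendritic cell genes 17 were tested, 0 called, with a median of -0.71 that was -0.059 without sham 58 High 1 and -1.34 without sham 58 High 3. Cd209a, a lectin of monocyte-derived dendritic cells, read 4.91, 7.22 and 7.71 on sham 58 High 1 to 3, against 9.41 and 9.52 on sham Low 1 and 2. Its sides did not overlap, and the difference was -2.85 ± 1.03 (SE, limma adjusted p 0.591). Zbtb46, a transcription factor of conventional dendritic cells, was called P only on sham 58 High 3 (6.27), and Xcr1, the receptor of their cross-presenting subset, reached no more than 4.33. Tcf4, the regulator of plasmacytoid dendritic cells, read 8.27, 7.30 and 9.57 on sham 58 High, against 5.20 and 4.63 on sham Low, and with the most often detected probe set its difference of 3.46 became -0.81. Siglech, the defining receptor of that cell, was called P on no array.

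**Figure D3:**
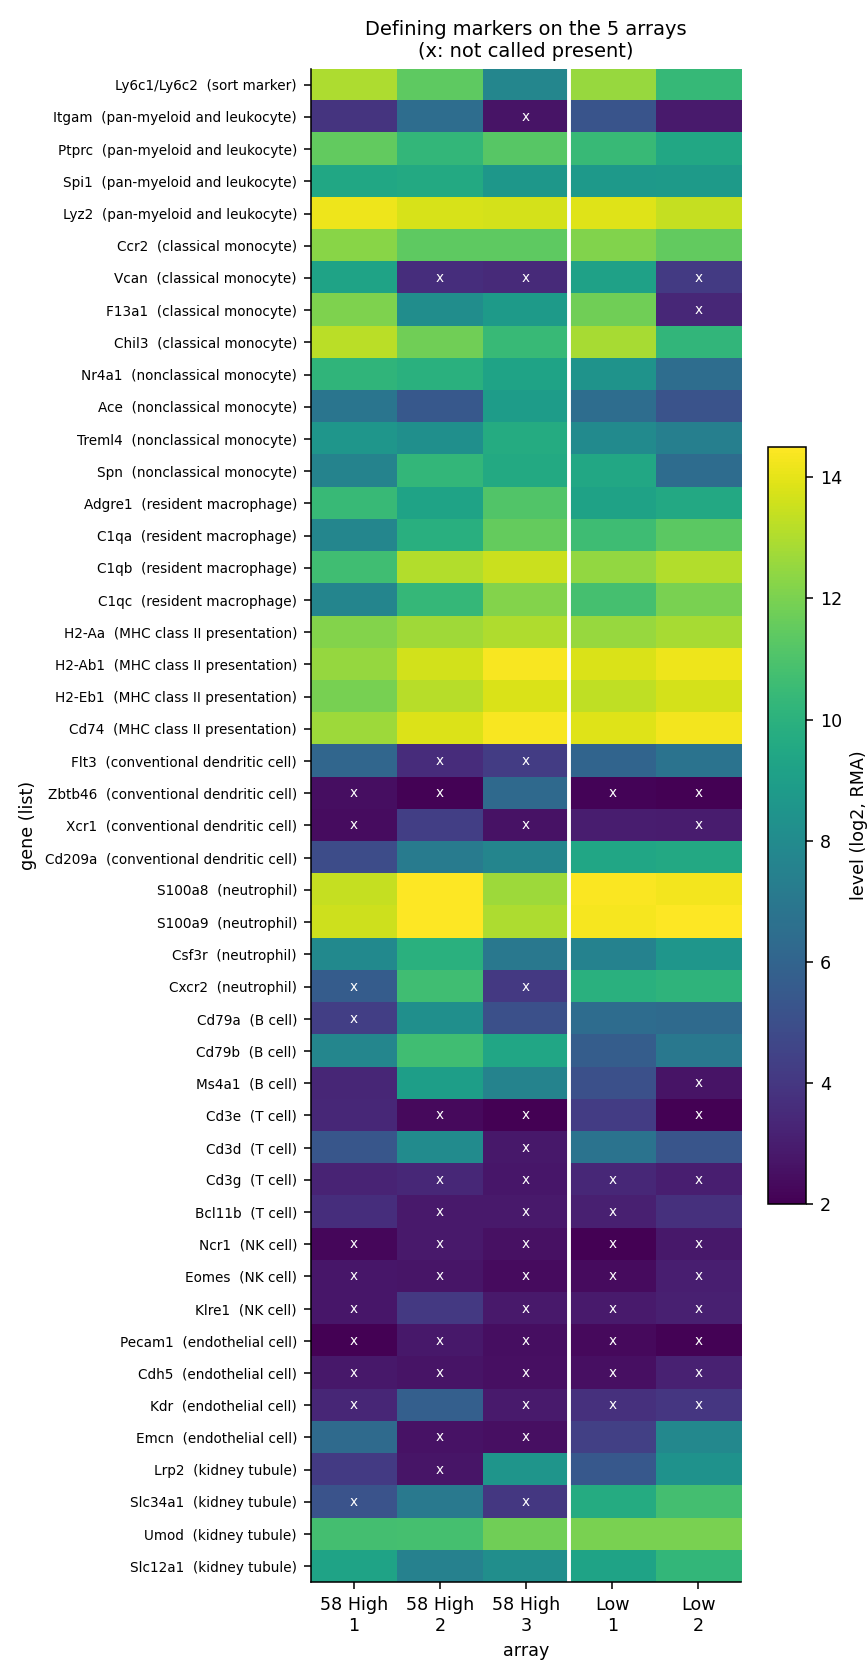
Levels (log2, colour scale) of the sort markers and of the defining genes of the cell type lists on the 5 arrays (columns), with a cross where the probe set was not called P. The neutrophil receptor Cxcr2 is called P on sham 58 High 2 and both sham Low arrays but not on sham 58 High 1 and 3, and Pecam1, Cdh5, Ncr1 and Eomes are not called P on any array.

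Neutrophil genes set the sham 58 High arrays apart from each other. Of 27 list genes 22 were on the array and 20 tested, 0 called; 17 of 20 differences were below 0, with a median of -1.59. Without sham 58 High 2 the median was -3.41, without sham Low 2 it was -2.89, and without sham 58 High 1 it was -1.11. Mean levels of the list were 7.46, 11.26 and 5.88 on sham 58 High 1 to 3, against 10.51 and 10.00 on sham Low 1 and 2. Detected members numbered 17, 20 and 10 of 22 on sham 58 High, against 22 and 19 on sham Low.

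Cxcr2, the receptor that draws neutrophils to tissue, read 5.63, 10.65 and 4.06 on sham 58 High 1 to 3, called P on the second alone, against 9.94 and 10.12 on sham Low 1 and 2. Stfa2l1, a stefin of neutrophils, read 5.40, 13.40 and 4.44 on sham 58 High, against 12.22 and 12.37 on sham Low. In both, sham 58 High 2 exceeded the sham Low arrays and the other sham 58 High arrays lay far below them. Il1r2, the decoy receptor for interleukin 1, read 5.77, 9.49 and 5.47 on sham 58 High, against 11.70 and 11.61 on sham Low, with no overlap and a difference of -4.74 ± 1.37 (SE, limma adjusted p 0.475). Hdc, which makes histamine, differed by -4.69 ± 1.95 (SE) with no overlap. S100a8, a calprotectin subunit that monocytes also make, stayed at 12.65 or above on every array.

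Inflammatory mediators followed the same arrays. Il1b read 10.11, 13.55 and 8.36 on sham 58 High 1 to 3, against 12.55 and 12.72 on sham Low 1 and 2. Cxcl2, a neutrophil-attracting chemokine, read 6.77, 12.44 and 9.05 on sham 58 High, against 12.43 and 11.61 on sham Low. Of the 12 mediators tested 8 were below 0 and 0 were called, with a median of -1.22 that ran from -2.01 without sham 58 High 2 to -0.39 without sham 58 High 3. The sides overlapped for both, sham 58 High 2 being the highest array in each. Cxcl10, an interferon-induced chemokine, ran the other way at 9.06, 7.70 and 7.75 on sham 58 High, against 4.32 and 6.71 on sham Low.

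Among interferon-stimulated genes 16 of 19 were tested, 0 called, with a median of 0.29 that became -0.12 without sham Low 2 and 0.52 without sham Low 1. Irf7, the factor that amplifies interferon production, read 9.67, 8.86 and 9.44 on sham 58 High, against 8.25 and 6.62 on sham Low. Ifit1, an antiviral RNA-binding protein, and Rtp4 also lay above on all 3 sham 58 High arrays, with differences of 2.82 ± 1.21 and 1.66 ± 0.81 (SE). These 3 of 16 lay above without overlap (10.8% over all genes), and the other 13 genes overlapped between the sides.

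Fc receptor and complement genes lay mostly below 0, 10 of 11 tested, against 3789 of 7837 over all genes. Their median was -0.77, and 0 were called. Fcgr4, the activating receptor for IgG2 antibodies, read 9.66, 10.16 and 10.79 on sham 58 High 1 to 3, against 11.19 and 11.88 on sham Low 1 and 2. It did not overlap, nor did Cfb, complement factor B, at a difference of -1.35 ± 0.95 (SE). Both were among 5 of 11 members that lay below without overlap (11.4% over all genes). Among 10 trafficking genes tested 0 were called and 4 lay above without overlap (10.8% over all genes). Itga4, the alpha chain of the integrin VLA-4, read 10.47, 6.72 and 9.18 on sham 58 High, against 5.81 and 3.13 on sham Low, a difference of 4.32 ± 1.41 (SE, limma adjusted p 0.526) that was 1.28 when probe sets were averaged. Immediate early and stress genes, which cell sorting itself can induce, had a median of 0.75 over 19 tested, 0 called, and 0.082 without sham 58 High 2.

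Lymphocyte genes were detected unevenly. Of 15 B cell genes 6 were tested and 0 called. Cd79b, a chain of the B cell receptor, read 7.75, 10.69 and 9.40 on sham 58 High 1 to 3, against 5.71 and 7.01 on sham Low 1 and 2. Ms4a1 (CD20) read 3.33, 9.00 and 7.61 on sham 58 High, against 5.07 and 2.67 on sham Low, lowest among the High arrays on the first. The B cell factor Pax5, chosen after its values were seen, was called P on no array. T cell genes were detected in 1 to 5 of 12 cases per array. The NK cell genes Ncr1 and Eomes were called P on no array, but other members were. Detected NK cell genes numbered 6, 11 and 7 of 16 on sham 58 High, against 9 and 4 on sham Low. Of 17 list genes 8 were tested, 0 called, with a median of 0.68 that was -0.29 with P on every array of a side. Mcm2, part of the DNA replication helicase, read 4.64, 7.87 and 7.98 on sham 58 High, called P on all, against 2.46 and 1.94 on sham Low, called P on none, which is 24.8-fold higher on sham 58 High. Its list of 14 tested cell cycle genes had a median of -0.48, 0 called, with no settled sign: it was 0.26 without sham 58 High 2 and -0.88 without sham 58 High 3. Mki67 overlapped between the sides.

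Kidney tubule genes lay below 0 in every case tested. Of 22 list genes 21 were on the array and 19 were tested; all 19 differences were below 0 and 0 were called. Sides did not overlap for 14 (11.4% over all genes, sham 58 High below), and 7 had an unadjusted p under 0.05 (4.75% over all genes, sham 58 High lower). The median was -1.79, and -1.64 over the 21 on the array, of which 20 were below 0. Mean levels were 6.69, 6.93 and 7.32 on sham 58 High 1 to 3, against 9.36 and 9.67 on sham Low 1 and 2. On the other arrays of Sham1 and Sham2 they were 9.91 and 10.47 in the Intermediate gate. In the High gate of these animals, where few probe sets were detected, they were 4.01 and 9.70. Whether the difference goes with the gate was not tested. Detected members numbered 15, 15 and 12 of 21 on sham 58 High, against 20 and 19 on sham Low.

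Aqp1, the water channel of the proximal tubule and of some vessels, read 2.50, 2.61 and 2.41 on sham 58 High 1 to 3, called P on none, against 8.54 and 7.26 on sham Low 1 and 2. Sham 58 High was 42.1-fold lower, with a difference of -5.40 ± 0.73 (SE, limma adjusted p 0.195). Slc34a1, the sodium-phosphate cotransporter shown above, read 5.22, 7.03 and 4.03 on sham 58 High, against 9.71 and 10.76 on sham Low, a difference of -4.81 ± 1.08 (SE, limma adjusted p 0.336). All 3 High values lay more than 2 log2 units below the lower Low value. Slc5a2, the glucose transporter SGLT2, and Slc27a2, a fatty acid transporter, differed by -4.67 ± 1.33 and -4.67 ± 1.14 (SE). Miox, which breaks down inositol and is the other proximal gene shown above, read 7.14, 8.34 and 4.47 on sham 58 High, against 10.25 and 10.85 on sham Low.

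Genes of later segments were uneven. Hsd11b2, which protects the mineralocorticoid receptor of the collecting duct, read 3.82, 7.00 and 9.16 on sham 58 High 1 to 3, against 9.98 and 11.00 on sham Low 1 and 2. Umod, uromodulin of the thick ascending limb, read 10.75, 10.83 and 11.78 on sham 58 High, against 12.00 and 11.98 on sham Low, a difference of -0.87 ± 0.71 (SE). Slc12a1, the loop diuretic target of the same segment, differed by -1.45 ± 0.84 (SE). Slc12a3, the thiazide-sensitive cotransporter of the distal tubule, read 6.16, 7.73 and 11.16 on sham 58 High, against 8.82 and 9.78 on sham Low. Calb1, the distal calcium-binding protein calbindin, read 8.15, 8.37 and 11.26 on sham 58 High, against 9.83 and 10.49 on sham Low. In both distal genes sham 58 High 3 was the highest of the 5 arrays. Miox, Hsd11b2, Slc12a3 and Calb1 were chosen after their values were seen. Tubule transcripts were therefore measurable on all 5 arrays, and their part in the other differences was not tested.

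**Figure D4:**
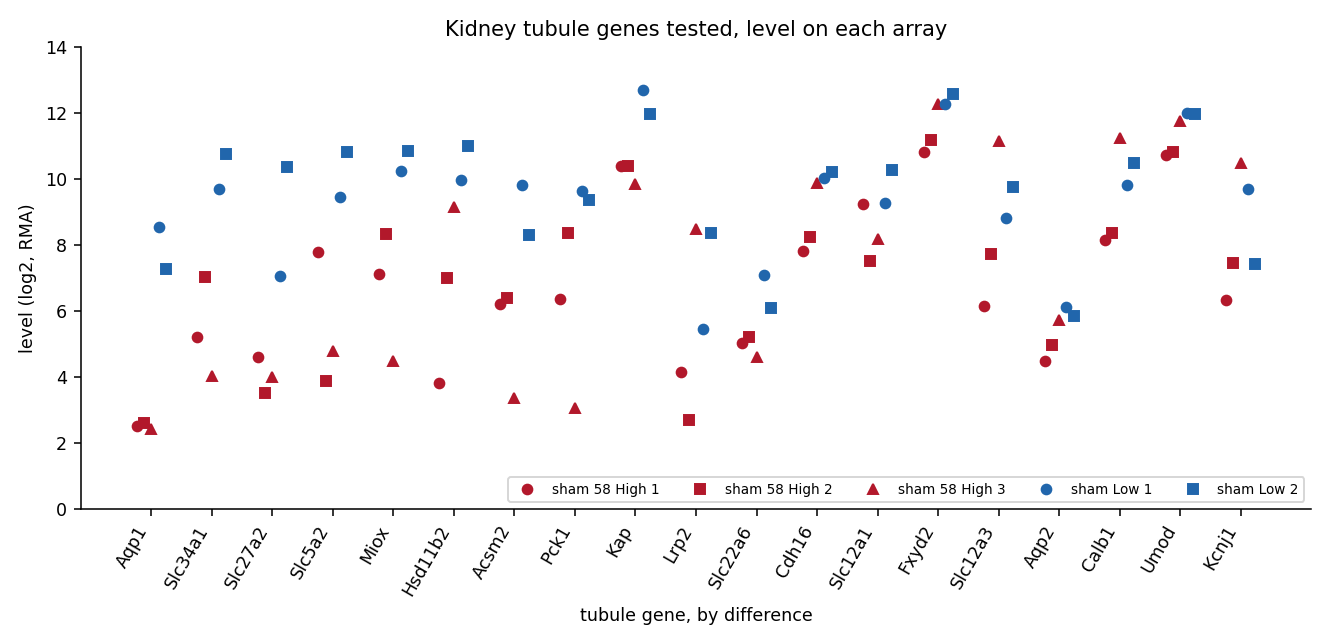
Level (log2, vertical axis) of each of the 19 kidney tubule genes tested on each of the 5 arrays, ordered by the difference between the sides (largest at the left). From Aqp1 to Kap the sham 58 High symbols lie below the sham Low symbols, and in Slc12a3, Calb1 and Kcnj1 sham 58 High 3 is the highest array.

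Other tubule transport and metabolism genes stood among those with the smallest p, and they were chosen after their values were seen. Slc5a12, a lactate transporter of the proximal tubule, read 1.86, 1.93 and 1.95 on sham 58 High 1 to 3, called P on none, against 7.69 and 7.58 on sham Low 1 and 2, 52.7-fold lower on sham 58 High. G6pc, the glucose-6-phosphatase of liver and kidney, read 2.95, 2.46 and 2.24 on sham 58 High, against 8.37 and 9.31 on sham Low, 78.0-fold lower. Cltrn (collectrin), an amino acid transporter partner of the proximal brush border, read 5.70, 6.65 and 5.96 on sham 58 High, against 11.08 and 11.69 on sham Low. Arrays of the same side lay within 1 log2 unit of each other in these 3 genes, and the limma adjusted p was 0.195 for each. They were picked by small p among genes without overlap, a choice that itself favours a small spread within sides.

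Endothelial genes were at or near the detection limit. Of 16 list genes 4 were tested and 0 called. Pecam1 and Cdh5, the defining junction proteins, were called P on no array. Ehd3, a gene of glomerular endothelium, read 3.14, 3.10 and 3.23 on sham 58 High, called P on none, against 6.12 and 7.00 on sham Low, 10.6-fold lower on sham 58 High, and its difference of -3.40 became 0.61 with its most often detected probe set. Detected members numbered 2, 3 and 2 of 16 on sham 58 High, against 10 and 3 on sham Low. Ccn2, a matricellular growth factor partner, was chosen after its values were seen and read 2.60, 2.99 and 2.92 on sham 58 High, against 10.05 and 8.52 on sham Low.

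With all sorted-cell arrays sharing the spread, 3 genes were called with higher values on sham 58 High and 8 with lower values, all 11 chosen for the text after their values were seen. That spread includes arrays with as little as 1.99% of probe sets called present and need not be that of the 5 arrays. The median residual SD over genes was 1.67 in that fit, against 1.16 on the 5 arrays. Phactr2, a regulator of phosphatase 1 and actin, read 8.16, 10.18 and 10.25 on sham 58 High 1 to 3, against 2.12 and 2.41 on sham Low 1 and 2. The difference was 7.26 ± 0.91 (SE, limma adjusted p 0.195 on the 5 arrays and 6.7e-04 with all arrays). It was called also with the sham 58 High mean as 1 sample, at a limma adjusted p of 0.0387, and it was 3.00 when its probe sets were averaged. Opa1, which fuses the inner mitochondrial membrane, read 7.58, 6.04 and 9.46 on sham 58 High, against 2.14 and 2.26, not called P, on sham Low (limma adjusted p 0.0146 with all arrays). Pik3c3, the lipid kinase of autophagy, was the other gene with higher values, at a difference of 4.32.

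The 8 with lower values were Cav1, Ces1e, Coil, Ficd, Nudt12, Ramp2, Tm4sf5 and Trmt5, at differences of -5.32 to -4.03. Cav1, the coat protein of caveolae, read 2.43, 3.55 and 3.27 on sham 58 High, against 6.85 and 7.96 on sham Low. Ramp2, a subunit of the adrenomedullin receptor, was called P on no sham 58 High array and on both sham Low arrays (6.58 and 6.26). Both are strongly expressed by endothelial cells among other cells. On the 5 arrays alone the adjusted p of all 11 genes was 0.195 or above.

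Among the genes of smallest p with higher values on sham 58 High, chosen after their values were seen, Tle4, a transcriptional corepressor, read 8.50, 10.38 and 9.79 on sham 58 High 1 to 3, against 3.99 and 2.41 on sham Low 1 and 2. Kat2b, a histone acetyltransferase, read 7.39, 9.06 and 8.98 on sham 58 High, against 2.68 and 2.70 on sham Low. P2rx7, the ATP-gated channel that triggers interleukin 1 release in macrophages, read 10.16, 7.61 and 9.38 on sham 58 High, against 4.35 and 3.80 on sham Low. These genes were picked among those whose sides did not overlap, so their lack of overlap is part of the choice and not a result.

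Distances between arrays of the same side overlapped with those between sides. Of the 7837 genes, 28.2%, 28.9% and 33.9% lay more than 2 log2 units apart between sham 58 High 1 and 2, 1 and 3, and 2 and 3, and 27.0% did between both sham Low arrays. Between the sides the share was 23.1%, 27.5% and 27.8% for sham 58 High 1 to 3 against sham Low 1, and 36.0%, 36.1% and 36.0% against sham Low 2. Every sham 58 High array was thus closer to sham Low 1 than to either array of its own label, and farther from sham Low 2. Sham Low 1 was also the array with the most probe sets called present (40.0%) among the 5. Within sham 58 High, 1328 genes (16.9%) spanned more than 4 log2 units, with the highest value on array 1 for 388, on array 2 for 435 and on array 3 for 505. Between the sham Low arrays 411 genes (5.24%) did, 318 of them higher on sham Low 1. Within sham 58 High, F13a1 and Vcan were highest on array 1, Stfa2l1 and Cxcr2 on array 2, and C1qa and Cd163 on array 3.

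**Figure D5:**
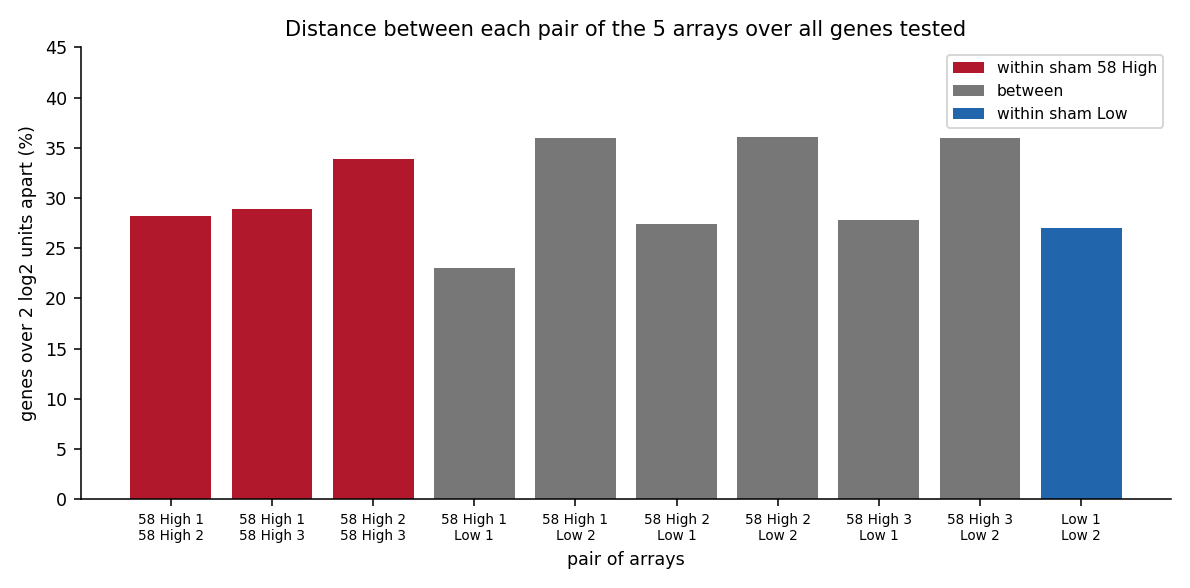
Share of the 7837 genes tested that lay more than 2 log2 units apart (%, vertical axis) for each pair of the 5 arrays (horizontal axis), coloured by whether the pair lies within sham 58 High, between the sides or within sham Low. The lowest bar, 23.1%, joins sham 58 High 1 and sham Low 1, and pairs within sham 58 High (28.2% to 33.9%) are not below all pairs between the sides.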

How the data were processed

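RNA of the sorted cells, of picogram amount, went through whole-transcriptome amplification and onto an Affymetrix mouse array of 45101 probe sets, per the labels' protocols. The deposited log2 values were made by the authors with RMA, and Affymetrix Expression Console is also named, per the submitters' processing notes; their versions are not given in the sources used here. Besides these, the authors deposited signal intensities on a linear scale and P, M or A detection calls. Of the probe sets 34958 had 1 gene in the probe table (18194 genes), 932 had several and 9211 were not listed there. For each gene the probe set with the highest mean over the 24 sorted-cell arrays was kept. Genes called P on at least 2 arrays of either side were tested with limma 3.58.1 in R 4.3.3 (lmFit, eBayes, two-sided, Benjamini-Hochberg over 7837 genes, threshold 0.05, 3 residual degrees of freedom). The code of the fit was checked on simulated data with large known differences and the same SD for every gene. That check does not measure the error rate or power on these arrays. The number of arrays limits the precision. Exact permutation of 3 against 2 arrays cannot reach 0.05.

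The 24 lists (409 members, 374 on the array) and the members were chosen with earlier results of these data known. Named genes are the first 4 of each list, up to 4 members of smallest p, Itgam and the Ly6c probe set; others are marked as chosen after their values were seen. The rule's further part, the 12 largest differences among genes at an adjusted p under 0.05, named none. Alternatives are 18 in number: deposited signals plus 1 or plus 32, quantile normalization, centring, other filters and probe set rules, all sorted-cell arrays, the sham 58 High mean as 1 sample, array weights, a trended robust prior, and each array left out.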

Additional observations from a re-analysis of the deposited data

How the results depend on the processing

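On the 5 arrays no gene was called under 16 of the 18 alternatives; the exceptions, 11 genes with all 24 sorted-cell arrays and 1 (Phactr2) with the sham 58 High mean as 1 sample in that fit, had more residual degrees of freedom. Genes at an unadjusted p under 0.05 numbered 594, against 244 and 279 with the sham 58 High mean as 1 sample (with all arrays and with sham Low alone), 942 without the filter, which tests 18194 genes, 323 without sham Low replicate 2, where 83 rather than 222 had higher values, and 791 without sham Low replicate 1, where 435 did; centring left 197 higher of 606. Of 432 list medians 413 moved by less than the spread, the pooled SD of the list's mean level between arrays of a side. That spread is wide: the classical monocyte median of -1.03 without sham Low 2 and the neutrophil median of -3.41 without sham 58 High 2 counted as unmoved. Fits with all sorted-cell arrays, the sham 58 High mean as 1 sample or the trended robust prior change only the variance. Under these, list medians and gene differences could not move. Of the 432, 23 had the other sign, in 11 of 24 lists. The kidney tubule median of -1.79 was -2.65 and -2.22 with signals plus 1 and plus 32 and -2.15 to -1.77 with 1 array left out. The endothelial median of -1.86 rests on 4 genes and was -3.07 with signals plus 1, -0.26 without the filter, -2.29 with P on every array of a side, -0.99 with probe sets averaged, -0.56 with the most detected probe set and -2.65 to -1.17 with 1 array left out. The plasmacytoid median of 0.76 was -0.44 with the most detected probe set and -0.11 to 1.91 with 1 array left out, the B cell median of 1.69 was 0.047 without the filter, the Fc receptor and complement median of -0.77 was -0.38 with probe sets averaged, and with 1 array left out the conventional dendritic cell median ran from -1.34 to -0.059 and the immediate early and stress median from 0.082 to 0.83. Of 2796 values for 156 genes 69, in 38 genes, had the other sign, 62 of them where the difference on the 5 arrays was smaller than its SE. The other 7 were in Ace, Ehd3, Tcf4, Maf, Ighm and Trem2. These values were Ace -0.17, Cox6a2 0.058, Csf3r -0.12, Itgam -0.61 and Mki67 0.20 with signals plus 1, Ace -0.11, Cox6a2 0.033, Csf3r -0.11, Itgam -0.48 and Mki67 0.11 with signals plus 32, Sdha -0.11 with centring, Ccr2 0.54, Fcgr1 0.26, Jun 0.054, Sdha -0.90 and Maf -0.58 with probe sets averaged, Ehd3 0.61 and Tcf4 -0.81 with the most detected probe set, and Mki67 0.0041, Cdk1 -0.095 and Sdha -0.11 with array weights. Leaving out each array in turn gave the other sign in 32 genes, with these ranges: Ccr2 -0.46 to 0.18, F13a1 -2.14 to 6.30, Chil3 -1.03 to 1.59, Spn -0.33 to 2.71, C1qb -0.91 to 0.50, H2-Aa -0.27 to 0.13, H2-Ab1 -0.90 to 0.022, Cox6a2 -0.18 to 0.0073, Ly6d -0.24 to 3.41, Csf3r -0.61 to 0.85, Cd79a -1.69 to 0.28, Cd3d -1.96 to 0.66, Siglecf -2.67 to 1.06, Pf4 -1.05 to 0.79, Itgam -0.91 to 1.43, Lyz2 -0.040 to 0.44, Egr1 -2.68 to 0.073, Mki67 -1.17 to 0.59, Cdk1 -0.73 to 1.21, Axl -1.02 to 0.078, Ctsd -0.020 to 0.53, Lgmn -2.44 to 0.34, Ndufs1 -1.30 to 1.02, Sdha -0.76 to 0.49, Ighm -0.090 to 2.55, Trem2 -0.052 to 2.58, Spib -2.82 to 0.42, Lipa -0.54 to 2.12, H2-DMb2 -1.56 to 0.26, Fn1 -1.91 to 4.37, Mgst1 -1.33 to 0.50 and Eng -0.94 to 0.27. Why calls and values changed under the alternatives was not tested. No paired analysis was possible because the sham 58 High arrays share 1 label and carry no number of their own. The folds of genes not called P on a side rest on signals near the detection limit there.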
